A study of Mus musculus with 19 samples.

Results

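The steroid receptor genes Esr1, Nr3c1 and Nr3c2 and the glucocorticoid response genes Fkbp5, Tsc22d3 and Sgk1 were measured by RNA sequencing in splenocytes of immunised mice. They were chosen by name, as the genes of the deposited expression table with these 6 symbols, and they are 6 of the 27179 genes listed. All 6 were found and all 6 passed the filter on low values, which kept 14186 genes with at least 0.5 RPKM, a read density scaled for transcript length and library size, in at least 4 mice. Nr3c2 passed with exactly 4 mice and Esr1 with 11, while the other genes reached that level in all 19.

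The mice were of the FCG model, in which the testis-determining gene Sry is deleted from the Y chromosome and supplied by a transgene on an autosome, so that gonadal sex and sex chromosome complement vary separately. Their sires were B6.Cg males that carry the transgene Tg(Sry)2Ei and the deletion Sry dl1Rlb, of the strain with the laboratory code ArnoJ, and their dams were C57BL/6J. Every mouse received an intraperitoneal injection of heat-killed Streptococcus pneumoniae of strain R36A, and spleen cells freed of red blood cells by lysis were taken 7 days later. The deposited samples include no uninjected group, and the sources used here give no age.

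The group XXF held 5 XX mice with ovaries and without the transgene, and XYF held 4 XY mice with ovaries, whose Y lacks Sry. The group XXM held 5 XX mice with testes, which carry the Sry transgene, and XYM held 5 XY mice with testes, which carry the transgene on the same deleted Y background. Each library came from 1 mouse. Libraries held from 11263753 to 19962022 reads assigned to genes, with a median of 17391536, and the deposited values do not tell whether single reads or read pairs were counted. The libraries of a group stood together in the running numbers, so an effect of processing by group and an effect of the group cannot be told apart.

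Steroid hormones cross the cell membrane and bind receptors that act as transcription factors in the nucleus. The glucocorticoid and mineralocorticoid receptors wait in the cytoplasm in a complex with heat shock proteins and bind related DNA elements once hormone has arrived, and the estrogen receptor binds elements of its own. In lymphoid organs glucocorticoids restrain inflammation and can kill lymphocytes, and the target genes they switch on serve as a readout of hormone action.

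The labels were checked against sex-linked genes. Sry had 0 reads in all 9 mice with ovaries and from 12 to 119 reads in the 10 mice with testes. Xist, the RNA of the inactive X, reached 23.9 to 41.8 RPKM in XXF and 26.8 to 44.9 RPKM in XXM, and at most 0.0357 RPKM in XYF and 0.0524 RPKM in XYM. The Y-linked genes Eif2s3y, Kdm5d and Uty had 0 reads in every XX mouse, and Ddx3y had at most 3 reads in XXM. The tissue label was checked against markers of lymphocytes. All 7 B cell markers and all 8 T cell markers passed the filter in these splenocytes, with none at 0, and the most abundant were Cd79b at a mean of 865 RPKM and Cd3g at 168 RPKM. Of 4 adipocyte markers, Plin1, Lep and Cidec were at 0 in all mice. Of 6 exocrine pancreas markers none was at 0 in all mice and 3 passed the filter, with Cela1 most abundant at a mean of 11.2 RPKM. Their sum ran from 5.87 RPKM in XYM 16 to 24.2 RPKM in XYF F7.

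Levels differed widely between the 6 genes on the RPKM scale, which divides by transcript length. Tsc22d3 had a mean of 233 RPKM over the 19 mice, above 98.1% of tested genes. Nr3c1 followed with 39.0 RPKM, Fkbp5 with 19.04 and Sgk1 with 13.6. Esr1 and Nr3c2 were near the limit of measurement, with 0.550 RPKM from 6 to 80 reads and 0.300 RPKM from 2 to 61 reads. The genes have the Entrez identifiers 13982 (Esr1), 14815 (Nr3c1), 110784 (Nr3c2), 14229 (Fkbp5), 14605 (Tsc22d3) and 20393 (Sgk1). On GRCm38.p6 Esr1 lies at chr10:4611989-5005633, Nr3c2 at chr8:76898083-77245012, Fkbp5 at chr17:28398753-28486149, Tsc22d3 at chrX:140539528-140600522 and Sgk1 at chr10:21882184-21999903. The few reads behind Esr1 and Nr3c2 limit the precision of every value given for them.

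**Figure D1:**
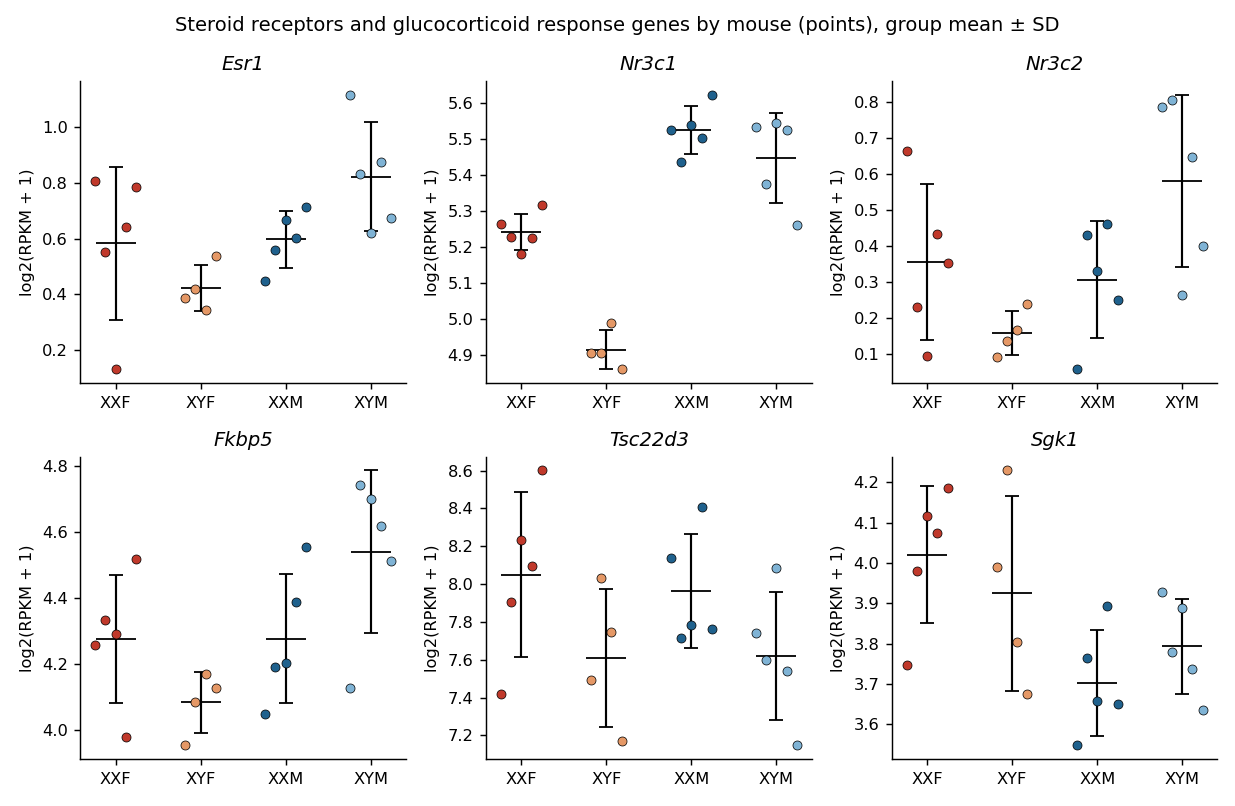
Each panel plots 1 gene on the log2(RPKM + 1) scale, with a point for each mouse, a long bar at the group mean and whiskers of 1 SD, in XXF, XYF, XXM and XYM. The 4 XYF mice sit between 4.86 and 4.99 for Nr3c1, under all other mice, and the XYM mean of Fkbp5 is 4.54 against 4.08 in XYF.

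Nr3c1 encodes the glucocorticoid receptor, through which corticosterone acts on almost every cell. In XXF mice F1 to F5 it measured 37.4, 36.5, 35.3, 36.4 and 38.8 RPKM, and in XYF mice F6 to F9 it measured 29.0, 29.0, 30.8 and 28.0 RPKM. In XXM mice 2, 5, 6, 7 and 8 it measured 45.0, 42.3, 45.5, 44.3 and 48.2 RPKM, and in XYM mice 12, 13, 15, 16 and 9 it measured 45.3, 40.5, 45.6, 45.0 and 37.4 RPKM. The XYF mice were lowest and overlapped no other group, every XXM mouse was above every XXF mouse, and XYM 9 was the only mouse with testes inside the range of the XXF group. The group means on the log2(RPKM + 1) scale were 5.52 ± 0.07 in XXM (SD, n = 5), 5.45 ± 0.12 in XYM (SD, n = 5), 5.24 ± 0.05 in XXF (SD, n = 5) and 4.92 ± 0.05 in XYF (SD, n = 4). XXM and XYM, neighbours in that order, differed by less than the larger of their SDs, while each of the lower steps was beyond it. The spread within groups was small, with an SD of 0.0812, under that of all but 1.35% of the 1781 genes of similar level.

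The comparison of XXF with XYF asks what the sex chromosomes do in mice with ovaries. Nr3c1 was higher in XXF by 0.33 log2 units (95% interval 0.18 to 0.48), with an adjusted p of 0.0374 by limma with Benjamini-Hochberg correction over all tested genes and an exact permutation p of 0.00794, the smallest that 5 against 4 mice can give. The adjusted p ranged from 0.0187 to 0.155 over the alternatives, and its highest value came from fitting only these groups. It rose above 0.1 without XXF F5 (0.109), XYF F6 (0.103) or XYF F9 (0.148), where the difference was 0.31, 0.32 and 0.31. In mice with testes the same comparison, XXM with XYM, gave 0.08 (95% interval -0.07 to 0.22) with an adjusted p of 0.455 by limma. Over both gonadal sexes Nr3c1 was higher in XX than in XY mice by 0.20 (adjusted p 0.0370 by limma, exact permutation p 0.00151 within gonadal sex). The test of whether the XX effect differs between mice with ovaries and mice with testes gave a difference of 0.25, an unadjusted p of 0.0213 and an adjusted p of 0.173 by limma, so the effect was not shown to differ. That adjusted p ranged from 0.0815 to 0.256 over the alternatives and was 0.0675 without XYM 9, where the difference was 0.30.

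For Nr3c1 the difference by gonadal sex was larger than that by sex chromosomes over all mice, 0.41 against 0.20, but among XX mice, at 0.28, it was under the 0.33 of XXF vs XYF. With XX chromosomes, XXM was higher than XXF by 0.28 (95% interval 0.14 to 0.43, adjusted p 0.0165 by limma), and with XY chromosomes XYM was higher than XYF by 0.53 (95% interval 0.38 to 0.68, adjusted p 0.000653 by limma). Neither pair of groups overlapped in any mouse. Over both complements the mice with testes were higher by 0.41 (95% interval 0.30 to 0.51, adjusted p 3.36e-05 by limma), and the exact permutation p within complement was 3.15e-05, the smallest these mice can give. Each of these differences is under the authors' threshold of 1.5-fold, which is 0.585 on the log2 scale.

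Esr1 encodes estrogen receptor alpha, the receptor through which estradiol regulates genes in many immune cells. In XXF mice F1 to F5 it measured 0.749, 0.465, 0.0952, 0.559 and 0.722 RPKM, and in XYF mice F6 to F9 it measured 0.308, 0.337, 0.271 and 0.450 RPKM. In XXM mice 2, 5, 6, 7 and 8 it measured 0.363, 0.474, 0.588, 0.516 and 0.640 RPKM, and in XYM mice 12, 13, 15, 16 and 9 it measured 1.17, 0.777, 0.536, 0.831 and 0.595 RPKM. XYM 12 had the highest level and XXF F3 the lowest, from 80 and 6 reads, and all XYM mice were above all XYF mice. The group means were 0.82 ± 0.19 in XYM, 0.60 ± 0.10 in XXM, 0.58 ± 0.27 in XXF and 0.42 ± 0.08 in XYF (log2(RPKM + 1), SD, n = 4 in XYF and 5 in the others). Of the steps in that order, only XYM over XXM was beyond the larger SD.

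Esr1 was higher in XYM than in XYF by 0.40 (95% interval 0.13 to 0.67, adjusted p 0.0280 by limma, exact permutation p 0.0159). Over both complements Esr1 was higher in mice with testes by 0.21 (95% interval 0.02 to 0.39, adjusted p 0.0816 by limma, exact permutation p 0.0457). That adjusted p ranged from 0.0456 to 0.0915 over the alternatives and reached 0.109 to 0.149 without any 1 of XXF F2 or F3, XYF F6, F7 or F8, XXM 6, 7 or 8, or XYM 12, 13 or 16. The difference was then 0.15 to 0.21, lowest without XXF F3. The XX pair alone, XXM against XXF, gave 0.015 (95% interval -0.24 to 0.27, adjusted p 0.965 by limma). In XXM against XYM the difference was -0.22 (95% interval -0.48 to 0.03, adjusted p 0.229 by limma), and its adjusted p ranged from 0.0771 with array weights to 0.355 by voom. The difference between the XX effects was 0.39, with an unadjusted p of 0.0409 and an adjusted p of 0.219 by limma, which became 0.0712 without XXF F3, with a difference of 0.50. Over the alternatives it ranged from 0.0450 to 0.387. On log2 scales that give less weight to the constant added before the logarithm, the XYM to XYF difference was larger, up to 1.12 by voom on whole reads.

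Nr3c2 encodes the mineralocorticoid receptor, which binds aldosterone and, with high affinity, corticosterone. In XXF mice F1 to F5 it measured 0.586, 0.174, 0.0671, 0.352 and 0.277 RPKM, and in XYF mice F6 to F9 it measured 0.0652, 0.0996, 0.123 and 0.180 RPKM. In XXM mice 2, 5, 6, 7 and 8 it measured 0.0404, 0.349, 0.257, 0.378 and 0.189 RPKM, and in XYM mice 12, 13, 15, 16 and 9 it measured 0.724, 0.748, 0.202, 0.567 and 0.321 RPKM. XYM 12, 13 and 16 and XXF F1 were the mice above 0.5 RPKM, and all XYM mice were above all XYF mice. The group means were 0.58 ± 0.24 in XYM, 0.36 ± 0.22 in XXF, 0.31 ± 0.16 in XXM and 0.16 ± 0.06 in XYF (log2(RPKM + 1), SD), and no neighbours in that order differed beyond the larger SD. Nr3c2 was higher in XYM than in XYF by 0.42 (95% interval 0.15 to 0.69, adjusted p 0.0230 by limma, exact permutation p 0.0159). By voom on whole reads the same difference was 1.92, past 1.5-fold, so the size of a Nr3c2 difference depends on the scale. The filter was met largely through XYM mice, so that comparison leaned on the group in which the gene was high.

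Other differences of Nr3c2 missed the threshold with all mice and passed it without 1 of them. All of these differences include XYM, which gave 3 of the 4 mice at the filter's level. They too leaned on the group in which the gene was high. In males vs females the difference of 0.19, or 0.85 by voom, had an adjusted p of 0.118 by limma (0.0136 to 0.147 over the alternatives), which became 0.0542 without XXF F1, 0.0649 without XXM 2, 0.0506 without XYM 15 and 0.0821 without XYM 9, with differences of 0.23, 0.22, 0.23 and 0.21. The XX pair alone, XXM against XXF, gave -0.05 (adjusted p 0.879 by limma). In XXM vs XYM the difference of -0.27 had an adjusted p of 0.158 by limma (0.0159 to 0.203 over the alternatives), or 0.0581 and -0.35 without XYM 15. The difference between the XX effects, 0.47 or by voom 2.13, had an unadjusted p of 0.0155 and an adjusted p of 0.160 by limma (0.0309 to 0.2002 over the alternatives). It became 0.0865 without XXF F3, 0.0923 without XYM 15 and 0.0840 without XYM 9, with differences of 0.54, 0.55 and 0.52.

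Fkbp5 encodes a co-chaperone that lowers the affinity of the glucocorticoid receptor for hormone and is itself induced by it. In XXF mice F1 to F5 it measured 18.1, 19.2, 18.6, 14.8 and 21.9 RPKM, and in XYF mice F6 to F9 it measured 14.5, 15.97, 17.01 and 16.5 RPKM. In XXM mice 2, 5, 6, 7 and 8 it measured 15.6, 17.3, 17.4, 19.9 and 22.5 RPKM, and in XYM mice 12, 13, 15, 16 and 9 it measured 16.5, 25.7, 24.98, 23.6 and 21.8 RPKM. XYM 13, 15 and 16 were the highest of all mice, and XYM 12 alone among the XYM group fell inside the range of XYF. The group means were 4.54 ± 0.25 in XYM, 4.28 ± 0.20 in XXM, 4.28 ± 0.19 in XXF and 4.08 ± 0.09 in XYF (log2(RPKM + 1), SD), and only XYM over XXM was a step beyond the larger SD. Fkbp5 was higher in XYM than in XYF by 0.46 (95% interval 0.18 to 0.73, adjusted p 0.0178 by limma, exact permutation p 0.0238).

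Over both complements Fkbp5 was higher in mice with testes by 0.23 (95% interval 0.04 to 0.42, adjusted p 0.0645 by limma, exact permutation p 0.0488). Its adjusted p ranged from 0.0434 to 0.0855 over the alternatives and reached 0.103 to 0.129 without any 1 of XXF F4, XYF F6, XXM 7 or 8, or XYM 13 or 16, with a difference of 0.19 to 0.22. The XX pair alone, XXM against XXF, gave 0.0009 (adjusted p 0.998 by limma), beside 0.46 in XYM against XYF. XXM against XYM gave -0.26 (95% interval -0.52 to -0.003, adjusted p 0.180 by limma), and the difference between the XX effects was 0.45 (unadjusted p 0.0210, adjusted p 0.172 by limma). With array weights both adjusted p values fell under 0.1, at 0.0973 and 0.0985, and over the alternatives they ranged up to 0.236 and 0.224.

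Tsc22d3 encodes GILZ, a leucine zipper protein that mediates much of the anti-inflammatory action of glucocorticoids, and its gene lies on the X chromosome. In XXF mice F1 to F5 it measured 170, 238, 300, 272 and 387 RPKM, and in XYF mice F6 to F9 it measured 179, 260, 214 and 143 RPKM. In XXM mice 2, 5, 6, 7 and 8 it measured 280, 209, 220, 339 and 217 RPKM, and in XYM mice 12, 13, 15, 16 and 9 it measured 213, 193, 270, 185 and 141 RPKM. XXF F5 was highest and XYM 9 lowest, and every group overlapped every other. The group means were 8.05 ± 0.44 in XXF, 7.96 ± 0.30 in XXM, 7.62 ± 0.34 in XYM and 7.61 ± 0.37 in XYF (log2(RPKM + 1), SD), and only the step from XXM to XYM was beyond the larger SD, by 0.340 against 0.339. Over both gonadal sexes the mean of XX mice was 0.39 above that of XY mice (95% interval 0.06 to 0.72), with an unadjusted p of 0.0243, an adjusted p of 0.161 by limma and an exact permutation p of 0.0324. The adjusted p ranged from 0.103 to 0.460 over the alternatives and was 0.0812 without XXF F1, 0.0787 without XYF F7 and 0.0844 without XYM 15, with differences of 0.47, 0.46 and 0.45. It was 0.363 without XYF F9, with a difference of 0.32, and 0.460 without both XYF F9 and XYM 9, with 0.26. With all mice it did not pass the threshold, and a p that misses it does not show that the groups are alike.

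Sgk1 encodes a serine/threonine kinase that glucocorticoids and mineralocorticoids induce and that regulates ion transport and T cell differentiation. In XXF mice F1 to F5 it measured 12.4, 14.8, 16.3, 15.8 and 17.2 RPKM, and in XYF mice F6 to F9 it measured 14.9, 17.8, 12.96 and 11.8 RPKM. In XXM mice 2, 5, 6, 7 and 8 it measured 10.7, 12.6, 11.6, 13.9 and 11.6 RPKM, and in XYM mice 12, 13, 15, 16 and 9 it measured 14.2, 12.7, 13.8, 12.3 and 11.4 RPKM. XYF F7 was highest and XXM 2 lowest, and 6 of the 9 mice with ovaries were above every mouse with testes. The group means were 4.02 ± 0.17 in XXF, 3.92 ± 0.24 in XYF, 3.79 ± 0.12 in XYM and 3.70 ± 0.13 in XXM (log2(RPKM + 1), SD), with no neighbours beyond the larger SD.

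Over both complements Sgk1 was lower in mice with testes, by -0.22 (95% interval -0.39 to -0.06, adjusted p 0.0433 by limma, exact permutation p 0.0121). In XXM against XXF it was lower by -0.32 (95% interval -0.55 to -0.09, adjusted p 0.0996 by limma, exact permutation p 0.0238), at the edge of the threshold. That adjusted p ranged from 0.0101 to 0.127 over the alternatives and reached 0.106 to 0.210 without any 1 of XXF F2, F3, F4 or F5, XYF F6 or F8, XXM 2, 5, 6 or 8, or XYM 12, 13, 15 or 16, with a difference of -0.33 to -0.28. The XY pair alone, XYM against XYF, gave -0.13 (adjusted p 0.402 by limma).

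**Figure D2:**
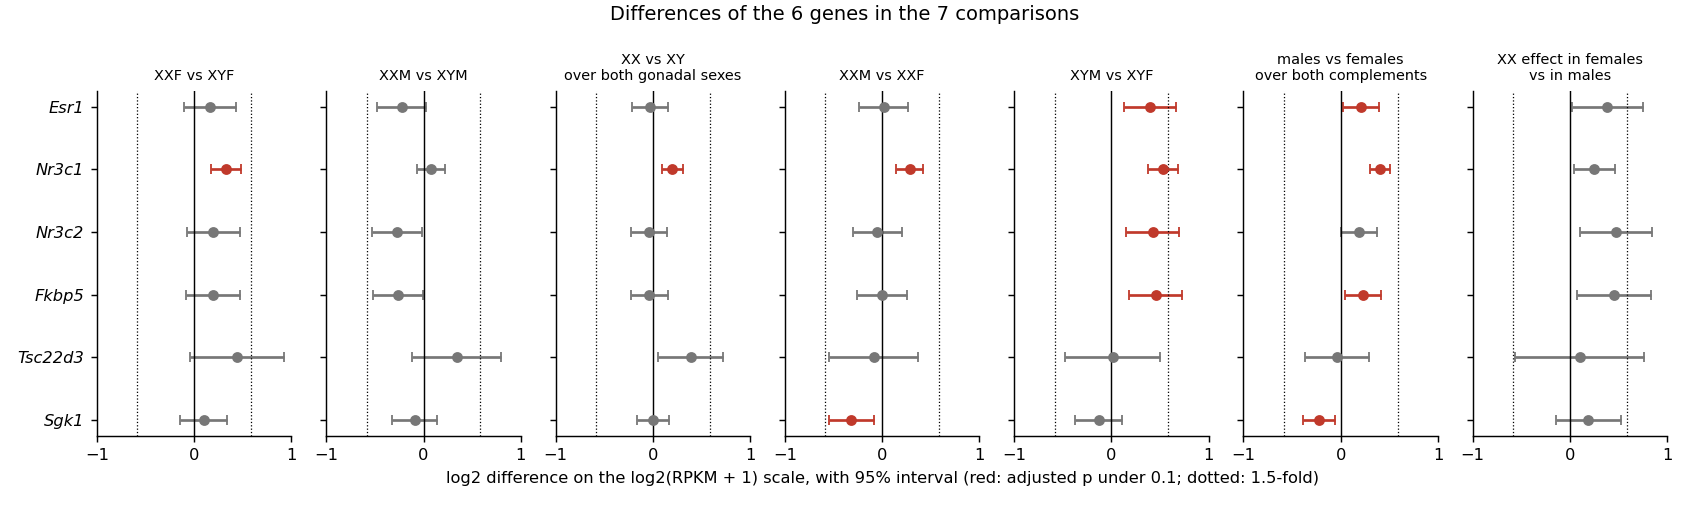
Each panel plots the log2 difference of the 6 genes in 1 comparison, first group minus second, with its 95% interval, red where the adjusted p is under 0.1, and dotted lines at 1.5-fold. Nr3c1 is red in 5 of the 7 panels, with 0.53 in XYM vs XYF, and no point passes the dotted lines.

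Side by side, the comparisons differ in how many genes of the whole table passed, and the count of the 6 genes is read against that share. A gene was called when its adjusted p was under 0.1 and its difference over 1.5-fold. In XXF vs XYF limma called 0 of 6 against 1.38% of all tested genes, with 1 at an unadjusted p under 0.05 (18.7% of all genes) and 0 called by voom (1.71%), and by adjusted p alone it gave 1 of 6 against 2.43%. In XXM vs XYM limma called 0 of 6 against 2.96%, with 2 at an unadjusted p under 0.05 (27.1% of all genes) and 0 called by voom (2.81%), and by adjusted p alone it gave 0 of 6 against 7.86%, with 0 by voom (5.02%). The members had a median difference of 0.19 beside 0.06 for all genes in XXF vs XYF and of -0.16 beside 0.01 in XXM vs XYM.

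In XX vs XY over both gonadal sexes limma called 0 of 6 against 1.72%, with 2 at an unadjusted p under 0.05 (22.8% of all genes) and 0 called by voom (2.76%), and by adjusted p alone it gave 1 of 6 against 6.93%. In XXM vs XXF limma called 0 of 6 against 4.22%, with 2 at an unadjusted p under 0.05 (19.8% of all genes) and 0 called by voom (5.68%), and by adjusted p alone it gave 2 of 6 against 9.5%. Their medians were -0.01 beside 0.03 for all genes and -0.02 beside -0.01.

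In XYM vs XYF limma called 0 of 6 against 15.8%, with 4 at an unadjusted p under 0.05 (42.4% of all genes) and 2 called by voom (20.6%), and by adjusted p alone it gave 4 of 6 against 39.9%. These counts of 2 and 4 include Nr3c2, which met the filter largely through XYM mice, the higher group. In males vs females over both complements limma called 0 of 6 against 7.32%, with 5 at an unadjusted p under 0.05 (41.7% of all genes) and 1 called by voom (12.1%), and by adjusted p alone it gave 4 of 6 against 38.5%. Their medians were 0.41 beside 0.02 for all genes and 0.20 beside 0.02. The difference between the XX effects compares XXF vs XYF with XXM vs XYM. For it limma called 0 of 6 against 0.0846% by both thresholds and 0 of 6 against 0.0846% by adjusted p alone, with 4 at an unadjusted p under 0.05 (21.0% of all genes) and 0 by voom (0.0282%). Their median there was 0.32 beside 0.02 for all genes, with 6 of 6 above 0 against 51.9% of all genes. In the comparisons it joins, 6 of 6 were above 0 in XXF vs XYF, against 60.3%, and 2 of 6 in XXM vs XYM, against 50.7%. The comparisons share groups and are not independent, and a share near the background is not a result about the members. The 6 genes are not independent either, with r 0.85 between Esr1 and Nr3c2 over the 19 mice. Without 1 mouse Tsc22d3 ranged from -0.046 to 0.26 for the difference between the XX effects.

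The promoters of Fkbp5, Tsc22d3 and Sgk1 are shown because these genes are known targets of the glucocorticoid receptor, which binds the element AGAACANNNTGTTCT. RefSeq windows of 300 bases, from 250 before to 50 after each start site on GRCm38.p6, matched 5 of the 6 genes with 13 windows. Sgk1 has 6 windows, of which 3 hold neither the element nor its arm, and Tsc22d3 has 3, of which 2 hold neither. For each the window with the most matches is shown. The windows below are written 5′ to 3′ on the gene's strand, and capitals mark the element or its arm TGTTCT, which lies within it, on either strand.
Sgk1, chr10:21993640-21993939, plus strand: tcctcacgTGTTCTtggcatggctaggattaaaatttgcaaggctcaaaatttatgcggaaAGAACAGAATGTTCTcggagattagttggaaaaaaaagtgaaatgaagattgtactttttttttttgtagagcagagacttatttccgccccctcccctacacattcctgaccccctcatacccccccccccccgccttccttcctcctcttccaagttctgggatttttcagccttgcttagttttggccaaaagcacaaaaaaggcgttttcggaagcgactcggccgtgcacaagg
Tsc22d3, chrX:140600473-140600772, minus strand: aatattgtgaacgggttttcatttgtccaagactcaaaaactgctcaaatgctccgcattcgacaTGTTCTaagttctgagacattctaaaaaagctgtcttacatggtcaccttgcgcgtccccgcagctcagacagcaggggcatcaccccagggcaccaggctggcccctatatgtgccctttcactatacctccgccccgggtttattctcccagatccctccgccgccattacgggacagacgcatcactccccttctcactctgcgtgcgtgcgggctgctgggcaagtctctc
Fkbp5, chr17:28486100-28486399, minus strand: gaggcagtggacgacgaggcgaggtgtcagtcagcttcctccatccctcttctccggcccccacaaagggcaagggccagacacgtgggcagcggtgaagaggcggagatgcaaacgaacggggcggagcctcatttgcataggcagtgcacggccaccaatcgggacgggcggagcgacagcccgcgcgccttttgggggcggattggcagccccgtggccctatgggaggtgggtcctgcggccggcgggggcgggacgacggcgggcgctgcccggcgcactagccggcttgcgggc
The whole element occurred in 3 of 32851 promoters of this length (0.00913%), of which the Sgk1 window was 1, at 189 to 175 bases before the start site. The arm TGTTCT occurred in 6233 promoters (18.97%) and in 4 of the 13 windows, and the Fkbp5 window held neither. The estrogen response element GGTCANNNTGACC, searched on both strands, occurred in 23 promoters (0.07%) and in none of the 13 windows. A match describes the letters in these windows and says nothing of binding in these cells.

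Genes that act around the receptors were taken from 10 lists. Of the 38 calls in these lists, 21 were kept in every alternative and in every fit without 1 mouse, and 17 were lost in at least 1, by the adjusted p or by the fold. Among receptor chaperones, which hold the receptors ready for hormone, all 12 listed genes were tested. Hsp90aa1, Dnaja1 and Stip1 were higher in XXM than in XXF, by 0.73, 0.75 and 0.63 (adjusted p 0.0583, 0.0764 and 0.0549 by limma), and the median of the list was 0.26 beside -0.01 for all genes. These were 3 of 12, against 1.3% of all genes called in that direction. In the same comparison 8 of 8 T cell markers were called lower, against 2.91% of all genes, and 3 of 6 dendritic cell markers higher. Of the 11 immediate early and heat shock genes 10 were higher in XXM, against 48.7% of all genes, with a median of 0.41. The part of these markers and genes in the chaperone differences was not tested. Each of these calls was lost without 1 of several mice, with an adjusted p of up to 0.139 for Hsp90aa1 without XXF F4, 0.201 for Dnaja1 without XXF F1 and 0.138 for Stip1 without XXM 8. Dnaja1 and Hsp90aa1 were also called in 1 other comparison each. Dnaja1 was higher in males than in females over both complements by 0.61 (adjusted p 0.0172 by limma, from 0.0161 to 0.0881 over the alternatives, and at most 0.0369 without 1 mouse), but the difference fell under 1.5-fold in 2 of 10 alternatives, to 0.38 with array weights, and in 6 of 19 fits without 1 mouse, to 0.53. Hsp90aa1 was higher in XXM than in XYM by 0.71 (adjusted p 0.0887 by limma), which became 0.225 without XXM 2. In XYM vs XYF 0 of the 12 chaperone genes were called, against 15.8% of all genes, and the list median was -0.07 beside 0.02.

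Among receptor coregulators, which carry the receptors' signal to chromatin, 4 of 11 were called higher in XYM than in XYF, against 7.63% of all tested genes called in that direction. They were the acetyltransferase gene Ep300 by 0.89 (adjusted p 0.00299 by limma), the coactivator genes Ncoa3 by 0.82 (0.00379) and Ncoa2 by 0.69 (0.00542), and Nrip1 by 0.95 (0.0673). The median of the list was 0.46 beside 0.02 for all genes in that comparison. The cell markers given below moved in the same comparison, and their part in these differences was not tested. Of them 6 of 7 B cell markers were called higher, against 7.63% of all genes, and 7 of 7 erythroid, 6 of 8 T cell and 4 of 4 platelet markers lower, against 8.13%. Nrip1, whose product represses ligand-bound receptors, was also lower in XXM than in XYM by -1.32 (adjusted p 0.0727), and these adjusted p values became 0.170 without XYF F6 and 0.188 without XXM 2.

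Esrra, an orphan receptor of the list of other steroid receptors, passed the filter, while Esr2, Pgr, Gper1, Esrrb and Esrrg did not and had at most 12 reads in any mouse. Esrra was higher in XX than in XY mice by 0.32 (95% interval 0.14 to 0.51, adjusted p 0.0549 by limma) and was not called at 1.5-fold. Among 11 tested of 15 genes of steroid metabolism, Hsd11b1, which regenerates active glucocorticoid, was lower in XXM than in XXF by -0.63 (adjusted p 0.0165 by limma), or -0.53 and under 1.5-fold without XXM 8. Hsd17b7 was higher in XYM than in XYF by 0.64 (0.00780), or 0.57 and under 1.5-fold without XYM 12 and also without both XYF F9 and XYM 9. Cyp11a1, which starts steroid synthesis, was higher in XXM than in XXF by 0.59 (0.0566), or 1.10 by voom, and its call was lost in 5 of 19 fits without 1 mouse, with an adjusted p of 0.134 without XXM 8. None of these calls was kept in every fit. The median of the list in XXM vs XXF was 0.06 beside -0.01 for all genes.

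Of 22 other glucocorticoid response genes, 21 were tested. In XYM vs XYF 2 were called higher and 2 lower, a share close to the 15.8% of all genes called there, with a median of -0.24 beside 0.02 for all genes. The metallothionein genes Mt2 and Mt1 were lower in XYM by -1.62 and -1.20 (adjusted p 0.00315 and 0.00499 by limma), and Birc3 and Bcl2l11, which regulate cell death, were higher by 0.70 and 0.60 (0.00408 and 0.00424). The call of Bcl2l11 was lost by its fold in 2 of 11 alternatives and in 3 of 19 fits without 1 mouse, to 0.55 in both, while those of Mt2, Mt1 and Birc3 were kept. Il7r, the receptor gene for the T cell cytokine interleukin-7, was lower in XXM than in XXF by -1.47 (0.000186) and than in XYM by -0.74 (0.0732, or 0.175 without XYM 12). The T cell markers given below moved with Il7r, and their part in its differences was not tested. Of them 8 of 8 were called lower in XXM than in XXF and 3 of 8 lower in XXM than in XYM, against 2.91% and 1.83% of all genes, with medians of -1.63 and -0.35. Over both complements Mt2 and Il7r were lower in mice with testes, by -1.04 and -0.73 (adjusted p 0.00239 and 0.00206 by limma). These were 2 of 21, against 5.36% of all genes, and both calls were kept in every fit. There 7 of 8 T cell and 7 of 7 erythroid markers were called lower too, and their part was not tested. Cd163, a scavenger receptor gene of macrophages, was higher in XXF than in XYF by 0.89 (0.0729, or 0.266 without XYF F9). That difference was 0.78 to 1.12 in the fits without 1 mouse. Cd163 was also higher in XX than in XY mice over both gonadal sexes by 0.75 (0.0156, and at most 0.0431 without 1 mouse).

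Among 6 tested of 9 estrogen response genes, Igfbp4 was lower in mice with testes by -1.34 (adjusted p 7.75e-06 by limma), with no overlap between the 10 mice with testes and the 9 with ovaries, and Ctsd was lower by -0.61 (0.000828), while the list median was 0.13 beside 0.02 for all genes. The call of Ctsd there was lost by its fold in 2 of 10 alternatives, to -0.48 after quantile normalization, and without XYF F7, to -0.52, while those of Igfbp4 were kept. The T cell and erythroid markers given below moved in the same comparison, and their part in these differences was not tested. Of them 7 of 8 and 7 of 7 were called lower, against 5.36% of all genes, with medians of -1.25 and -1.52. Stc2 was higher in XYM than in XYF by 0.89 (0.00385) and lower in XXM than in XYM by -0.97 (0.0121), or 1.93 and -2.35 by voom, so the size depends on the scale. Stc2 reached the filter's level in 4 XYM mice and 1 XYF mouse only, with 1 to 18 reads outside XYM, so it was tested through the group in which it was high. Of 9 tested genes of the Sgk1 and mineralocorticoid pathway, Pdpk1, which encodes a kinase that activates the Sgk1 protein, was higher in XYM than in XYF by 0.66 (0.00146), with a list median of 0.31 beside 0.02. That was 1 of 9, close to the 7.63% of all genes called higher there. Of 7 tested paralogs of the response genes, Tsc22d2 was higher in the same comparison by 0.65 (0.00299), or 0.57 and under 1.5-fold without XYF F6, with a list median of -0.10 beside 0.02. Of 12 tested circadian clock genes, Bhlhe41, Arntl and Clock were higher there by 0.89, 0.73 and 0.60 (0.0134, 0.00321 and 0.0119), 3 of 12 against 7.63% of all genes, with a list median of 0.35 beside 0.02. Clock lies near 1.5-fold, and its call, and with it the count of 3, was lost in 2 of 11 alternatives, to 0.55, and in 4 of 19 fits without 1 mouse, to 0.49. Bhlhe41 was also higher in mice with testes over both complements by 0.77 (adjusted p 0.00307 by limma), a call kept in every fit. In XYM vs XYF 6 of 7 B cell markers were called higher, and 7 of 7 erythroid, 6 of 8 T cell and 4 of 4 platelet markers lower. The part of the cell markers in the differences of Stc2, Pdpk1, Tsc22d2 and the clock genes was not tested. Among 11 immediate early and heat shock genes, Nr4a1 was lower in XXF than in XYF by -0.72 (0.0113), with a list median of -0.43 beside 0.06. That median was 0.41 in XXM vs XXF, 0.23 in XXM vs XYM and -0.38 in XYM vs XYF. In XXF vs XYF 5 of 6 NK cell markers were called higher, against 0.67% of all genes, and neutrophil markers had a median of -1.90. The part of these markers in the Nr4a1 difference was not tested.

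**Figure D3:**
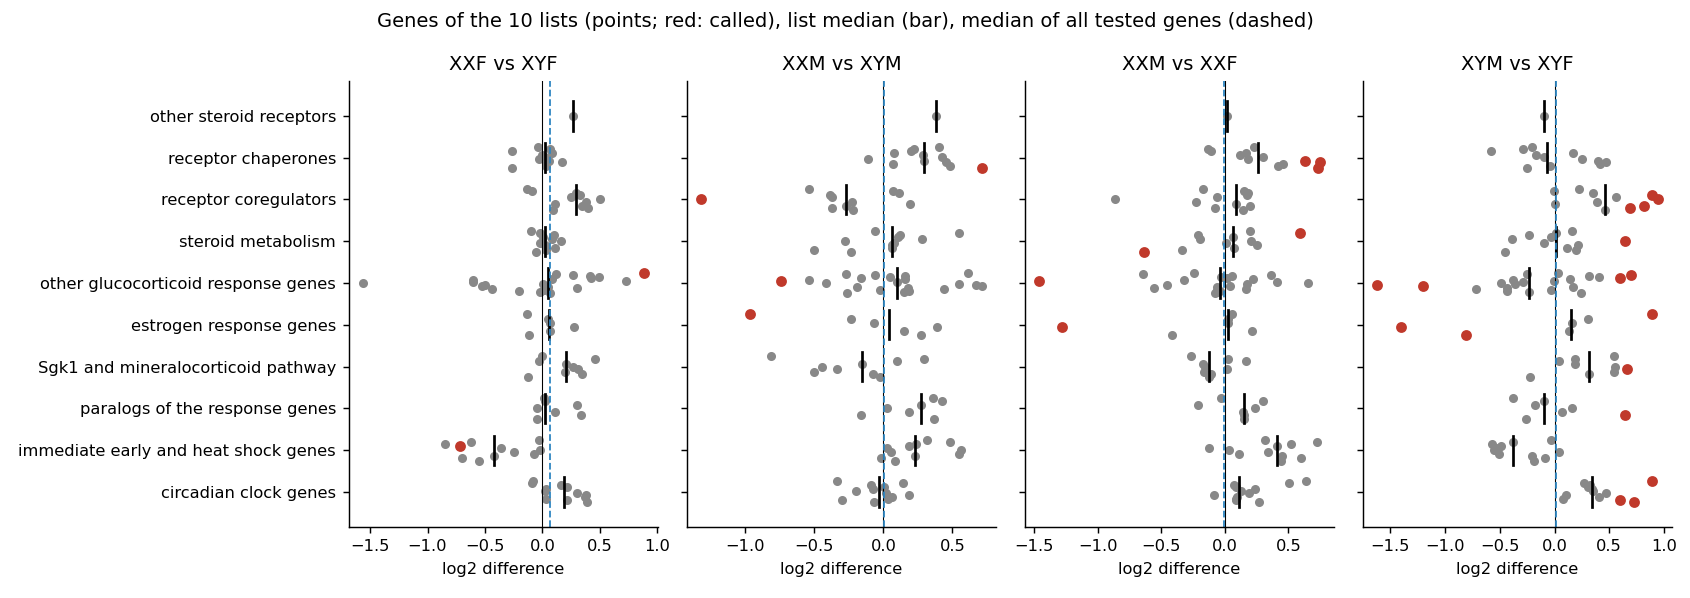
Each panel plots the log2 difference of every tested gene of the 10 lists in 1 comparison of groups, with called genes in red, a bar at the list median and a dashed line at the median of all tested genes. The coregulator median lies at 0.46 in XYM vs XYF, and the immediate early and heat shock median at -0.43 in XXF vs XYF.

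The mixture of cells also differed between mice, and fewer cells of a type and less RNA per cell cannot be told apart in bulk RNA. The 7 B cell markers, most abundant Cd79b and none at 0, summed to 2845, 2764, 2404, 2702 and 2664 RPKM in XXF and to 1515, 2473, 2539 and 1279 RPKM in XYF. They summed to 3835, 4214, 3703, 3828 and 3477 RPKM in XXM and to 3464, 2924, 3690, 3278 and 2144 RPKM in XYM. All XXM mice were above all mice with ovaries, and XYF F9 and F6 were lowest. In XYM vs XYF 6 of the 7 were called higher, against 7.63% of all genes, and over both complements 5 of 7, against 1.96%. With both on the log2 scale, as for every r given here, Nr3c1 followed this sum over the 19 mice with r 0.86, or 0.56 after removal of group means. The points share their libraries and so their depth and cell mixture. The part of the B cell markers in the Nr3c1 differences was not tested.

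The 8 T cell markers, most abundant Cd3g and none at 0, summed to 941, 1318, 1154, 958 and 1139 RPKM in XXF and to 954, 1219, 904 and 464 RPKM in XYF. They summed to 424, 441, 373, 297 and 299 RPKM in XXM and to 474, 428, 599, 504 and 281 RPKM in XYM. All mice with ovaries but XYF F9 were above all mice with testes, and 8 of 8 were called lower in XXM than in XXF, against 2.91% of all genes. Sgk1 followed this sum with r 0.76, or 0.55 after removal of group means, and its part in the Sgk1 differences was not tested.

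The 6 NK cell markers, most abundant Gzma and none at 0, summed to 388, 419, 410, 522 and 480 RPKM in XXF and to 146, 238, 164 and 83.1 RPKM in XYF. They summed to 375, 311, 366, 353 and 323 RPKM in XXM and to 193, 193, 278, 158 and 60.3 RPKM in XYM. All XX mice were above all XY mice, and 5 of 6 were called higher in XX mice, against 0.515% of all genes. Tsc22d3 followed this sum with r 0.77, or 0.70 after removal of group means. Nr3c1 and Sgk1 followed it with r 0.37 and 0.36, or 0.63 and 0.60 after removal of group means. The part of the NK cell markers in the values of these genes was not tested.

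Neutrophil markers were uneven between mice, and 2 libraries stood furthest apart. Their 8 genes, most abundant S100a9 and none at 0, summed to 4697, 3908, 5393, 5157 and 4495 RPKM in XXF and to 13172, 16801, 8070 and 56701 RPKM in XYF. They summed to 6717, 5756, 7560, 5055 and 4486 RPKM in XXM and to 3217, 9436, 4112, 3990 and 58582 RPKM in XYM. All XYF mice, also without F9, were above all XXF mice. In XXF vs XYF 6 of 8 had an unadjusted p under 0.05 (18.7% of all genes), with 0 called by limma or voom and a median of -1.90 beside 0.06. XYF F9 and XYM 9 were far above the other mice, and both had the lowest Nr3c1 and Tsc22d3 values of their groups. Nr3c1 ran against this sum with r -0.60 over the 19 mice, or -0.81 after removal of group means. Without both, Nr3c1 differed by 0.31 in XXF vs XYF, 0.17 in XX vs XY and 0.56 in XYM vs XYF (adjusted p 0.0641, 0.0911 and 0.000524 by limma). The part of the neutrophil markers in the Nr3c1 differences was not tested.

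The 7 erythroid markers in the table, most abundant Hbb-bs and none at 0, summed to 11460, 17534, 24850, 20463 and 14504 RPKM in XXF and to 43747, 17858, 14196 and 32837 RPKM in XYF. They summed to 10305, 8307, 6317, 6423 and 12720 RPKM in XXM and to 2056, 6154, 4469, 1367 and 13251 RPKM in XYM. XYF F6 was highest and XYM 16 lowest, and all 7 were called lower in XYM than in XYF, against 8.13% of all genes. The sum ran against Nr3c1 (r -0.74), Esr1 (r -0.69) and Nr3c2 (r -0.67) over the 19 mice, or -0.65, -0.43 and -0.45 after removal of group means, and its part in their differences was not tested.

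The 7 of 8 plasma cell markers in the table, most abundant Jchain and none at 0, summed to 767, 1514, 1527, 697 and 965 RPKM in XXF and to 1804, 1520, 1859 and 1331 RPKM in XYF. They summed to 1409, 1330, 985, 1302 and 1236 RPKM in XXM and to 1059, 1507, 1682, 1065 and 1575 RPKM in XYM. XXF F4 and F1 were lowest and XYF F8 highest, and XXF and XYF overlapped. In XXF vs XYF 1 of the 7 was called lower, against 0.712% of all genes. Their median was -0.42 beside 0.06 for all genes, with 3 of the 7 higher in XXF. The sum ran against Esr1 with r -0.55, or -0.76 after removal of group means, and against Nr3c2 with r -0.50, or -0.65.

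The 6 dendritic cell markers, most abundant Itgax and none at 0, summed to 34.0, 24.8, 24.5, 35.5 and 28.5 RPKM in XXF and to 27.3, 26.5, 42.9 and 40.02 RPKM in XYF. They summed to 51.2, 52.7, 63.0, 59.1 and 76.2 RPKM in XXM and to 54.1, 72.3, 55.1, 52.9 and 43.7 RPKM in XYM. All mice with testes were above all mice with ovaries, and 3 of 6 were called higher in XXM than in XXF, against 1.3% of all genes, and 3 of 6 in XYM than in XYF, against 7.63%. Nr3c1 followed the sum with r 0.71, or 0.34 after removal of group means, and Sgk1 ran against it with r -0.68, or -0.36.

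The 11 markers of monocytes and macrophages, most abundant Lyz2 and none at 0, summed to 1892, 1451, 1642, 2137 and 1756 RPKM in XXF and to 1686, 2845, 1252 and 4113 RPKM in XYF. They summed to 1353, 1475, 1306, 1546 and 1560 RPKM in XXM and to 1086, 1562, 1187, 1153 and 3814 RPKM in XYM. XYF F9 and XYM 9 were again highest, and 4 of 11 were called lower in XYM than in XYF, against 8.13% of all genes. Nr3c1 ran against the sum with r -0.61, or -0.70 after removal of group means. The part of the plasma cell, dendritic cell and monocyte markers in the differences of these genes was not tested.

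The 4 markers of megakaryocytes and platelets, most abundant Ppbp and none at 0, summed to 58.98, 50.03, 54.12, 64.36 and 61.16 RPKM in XXF and to 95.99, 71.94, 56.28 and 98.08 RPKM in XYF. They summed to 79.56, 74.38, 55.90, 59.62 and 41.64 RPKM in XXM and to 44.38, 58.60, 61.06, 24.51 and 44.91 RPKM in XYM. XYF F9 and F6 were highest and XYM 16 lowest. Fkbp5 ran against the sum with r -0.57, or -0.25 after removal of group means, and Nr3c1 with r -0.53, or -0.38, and its part in their differences was not tested. Of 8 stroma and endothelium markers 2 were tested. Their sum followed Esr1, Nr3c2 and Nr3c1 with r 0.57, 0.63 and 0.48, or 0.47, 0.57 and 0.62 after removal of group means. The exocrine pancreas sum ran against Nr3c2 with r -0.63, or -0.27, and 1 of its 3 tested markers was called lower in XYM than in XYF. The part of both sets was not tested.

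**Figure D4:**
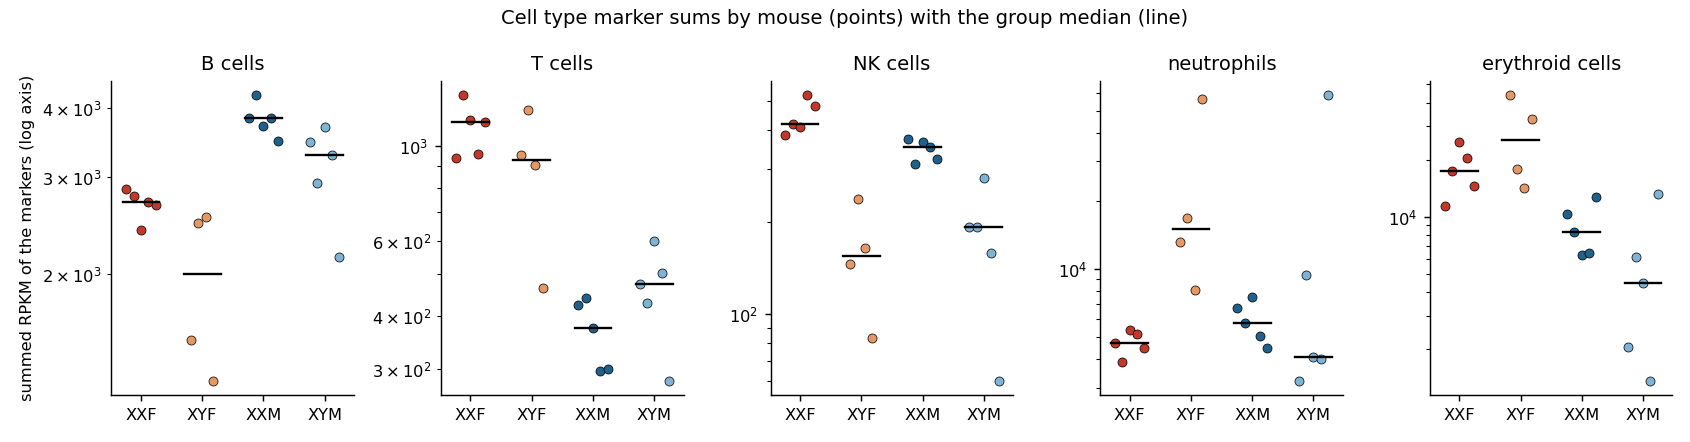
Each panel plots the summed RPKM of the markers of 1 cell type on a log axis, with a point for each mouse and a line at the group median. T cell sums are 941 to 1318 in XXF and 297 to 441 in XXM, and the neutrophil sums of XYF F9 and XYM 9 are 56701 and 58582.

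The 6 genes did not move as 1 block. Over the 19 mice Esr1 and Nr3c2 followed each other with r 0.85, or 0.75 after removal of group means, and Tsc22d3 and Sgk1 with r 0.57, or 0.78. Nr3c1 and its regulator Fkbp5 had r 0.49, or 0.14 after removal of group means. The genes most like each of them by Pearson r were Prkd3, Vps13b and Cep350 for Esr1 (0.91, 0.90 and 0.90) and Sgms1, Irak2 and Spns2 for Nr3c1 (0.95 each). For Nr3c2 they were Ralgapb, Ttll4 and Slc30a7 (0.93 each), and for Fkbp5 Oxsr1, Fam117b and Desi1 (0.80, 0.79 and 0.79). For Tsc22d3 they were Pik3ip1, Rab3ip and Cd69 (0.86, 0.82 and 0.82), and for Sgk1 Gabrr2 and the T cell receptor segments Trbv31 and Trbj2-1 (0.84, 0.83 and 0.83). Ranking by Spearman's rho or after removal of group means kept 0 or 1 of the 3 genes, so the names depend on the measure.

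**Figure D5:**
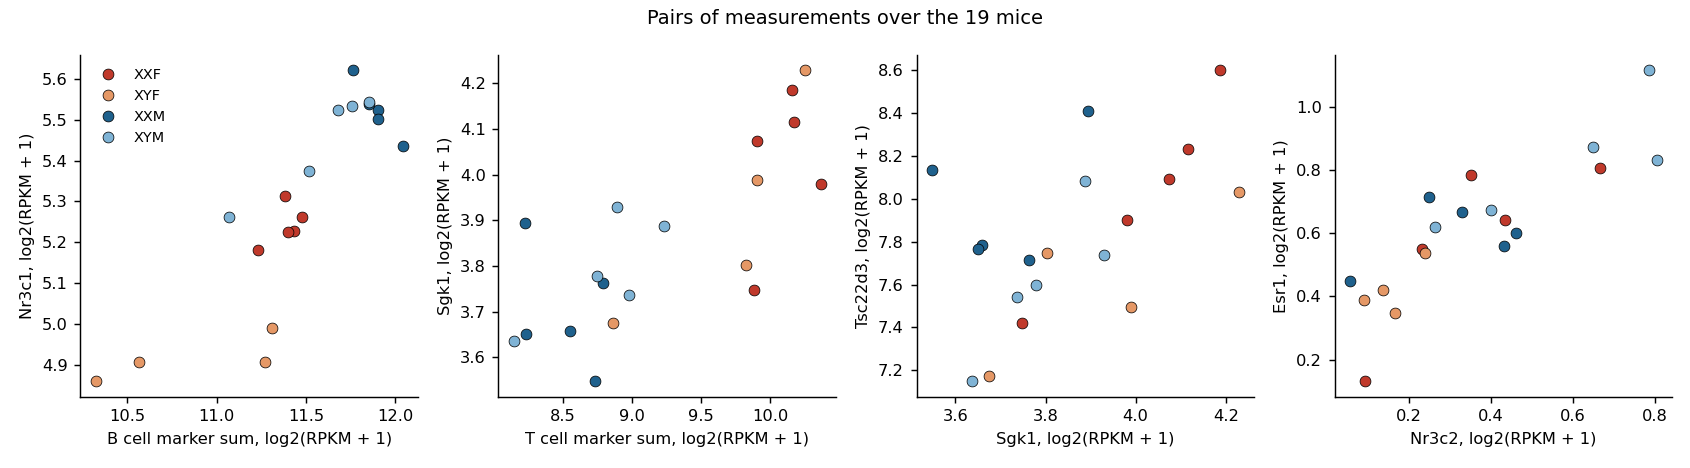
Each panel plots a pair of measurements on the log2(RPKM + 1) scale, with a point for each of the 19 mice coloured by group. Nr3c1 lies against the B cell marker sum (r 0.86), Sgk1 against the T cell marker sum (r 0.76), Tsc22d3 against Sgk1 (r 0.57) and Esr1 against Nr3c2 (r 0.85).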

How the data were processed

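The values are log2(RPKM + 1) as the authors deposited them, made upstream with Subread and featureCounts on mm10. The members and the gene lists were chosen with earlier results of these data known. Genes with at least 0.5 RPKM in at least 4 mice were fitted with limma 3.58.1 in R 4.3.3, with a mean for each group, an empirical Bayes spread with a trend on expression, and Benjamini-Hochberg correction over the 14186 genes. Called means an adjusted p under 0.1 and over 1.5-fold. Exact permutation tests were two-sided and counted the splits whose absolute difference in means was at least the one observed, within the other factor where 2 pairs of groups were joined. Whole reads were recovered from the steps between values, within 0.05 reads for 21317 of 21317 genes with a read, and used for limma-voom. Entrez IDs matched for 25275 of 27179 genes. From each list every called gene was named, at most 6 with the largest differences, or otherwise the genes with the largest differences, and the 3 genes of highest Pearson r with each member. Alternatives were another pseudocount, filter, scaling, set of samples, spread, threshold or unit, and each mouse left out. The labels and the methods of the paper name different library kits. Python 3.11.15, numpy 2.4.6, pandas 2.3.3, scipy 1.17.1, numba 0.67.0 and matplotlib 3.10.9 were used.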

Additional observations from a re-analysis of the deposited data

Results flagged for a closer look

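The summed neutrophil markers of XYM 9, 58581.5 RPKM, stood far from those of the other XYM mice. It was 1 of 44 groups of mice and quantities examined, and chance sets apart about 1 in 20 such groups. Nr4a1, an immediate early gene, differed in its XX effect between mice with ovaries and mice with testes, by -0.90 log2 units with an adjusted p of 0.0877 by limma. That adjusted p ranged from 0.0300 to 0.123 over the alternatives, with a difference of -0.97 to -0.67. The call was lost, with an adjusted p above 0.1, with a pseudocount of 0.1, without a filter, after quantile normalization, without a trend and by voom. It was also lost in 13 of the 19 fits that left out 1 mouse, with an adjusted p of 0.232 without XXF F5 as the highest. The difference in those 19 fits was -1.01 to -0.81. The cause of either was not tested.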

How the results depend on the processing

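With no fold threshold the members called were 1 in XXF vs XYF, 1 in XX vs XY, 2 in XXM vs XXF, 4 in XYM vs XYF and 4 in males vs females, in place of 0, since this alternative drops 1 of the 2 conditions. In XYM vs XYF a pseudocount of 0.1, a pseudocount of 0.5 and voom each called 2, which were Esr1 and Nr3c2. Of the 14186 tested genes they called 2979, 2642 and 2921 there. Nr3c2 met the filter largely through XYM mice, the higher group. In males vs females voom called 1, Esr1, against 12.1% of all genes. Esr1 and Nr3c2 were not tested with a filter at 1 RPKM.

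At an adjusted p under 0.05 the differences in males vs females of Esr1 (0.21) and Fkbp5 (0.23) and that of Sgk1 in XXM vs XXF (-0.32) no longer passed. Sgk1 in XXM vs XXF also missed 0.1 without a filter (-0.32), without a trend (-0.32), after quantile normalization (-0.29) and by voom (-0.34). Nr3c1 in XXF vs XYF missed it when only these groups were fitted (0.33), with fewer samples. Without 1 mouse these ranged from 0.15 to 0.24 for Esr1, 0.19 to 0.28 for Fkbp5, -0.39 to -0.28 for Sgk1 and 0.31 to 0.35 for Nr3c1. The differences of Nr3c1 in the other comparisons where it passed, of Esr1, Nr3c2 and Fkbp5 in XYM vs XYF, and of Sgk1 in males vs females kept their direction and their side of 0.1 under every alternative run.

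The following differences changed sign, none of which passed the threshold, and the cause was not tested. With array weights Esr1 became 0.015 in XX vs XY and -0.047 in XXM vs XXF, Fkbp5 -0.0017 in XXM vs XXF and Tsc22d3 -0.056 in XYM vs XYF. Median ratio rescaling gave -0.045 for Tsc22d3 in XYM vs XYF and -0.033 for Sgk1 in XX vs XY. Quantile normalization gave 0.0024 for Nr3c2 in XXM vs XXF, 0.088 for Tsc22d3 in males vs females and -0.0048 for Sgk1 in XX vs XY. Without XYF F9 and XYM 9, an alternative chosen after seeing the data, Tsc22d3 was -0.016 in XYM vs XYF and Sgk1 -0.058 in XX vs XY.

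Without 1 mouse, Esr1 ranged from -0.060 to 0.024 in XX vs XY and -0.098 to 0.071 in XXM vs XXF. Fkbp5 ranged from -0.086 to 0.0018 and -0.073 to 0.061 in the same comparisons, Nr3c2 from -0.11 to 0.028 in XXM vs XXF and Sgk1 from -0.039 to 0.054 in XX vs XY. Tsc22d3 ranged from -0.25 to 0.050 in XXM vs XXF, -0.13 to 0.15 in XYM vs XYF, -0.12 to 0.032 in males vs females and -0.046 to 0.26 for the difference between XX effects.

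The genes called in the whole table moved more. XXF vs XYF went from 196 to 56 without XYF F9 and 850 without XYF F7, XXM vs XYM from 420 to 51 without XXM 2 and 1214 without XYM 15, and XX vs XY from 244 to 148 without XYF F9 and 518 without XYF F7. XYM vs XYF went from 2237 to 1395 without XYF F6, and the difference between XX effects from 12 to 0 without XYF F6, 1695 without XYM 9 and 1911 with array weights. Median ratio rescaling moved the share of called genes higher in XXF than in XYF from 48.5% to 36.3%. Depth limits Esr1 and Nr3c2, with 6 to 80 and 2 to 61 reads.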
